A study of Mus musculus with 4 samples.

Results

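The 9 mouse genes described here are testis-expressed copies and isozymes of widely used genes: Pgk2, Pdha2, Rpl10l, Cetn1, Utp14b, Cstf2t and Rbmxl2, each on an autosome with a parent gene on X, and Ldhc and Gapdhs, the germ cell lactate dehydrogenase and glyceraldehyde-3-phosphate dehydrogenase. They were taken by symbol from the RefSeq annotation of GRCm38.p6 (mm10), where all 9 were found among 21887 protein-coding genes and 49943 annotated genes on chromosomes 1 to 19, X and Y. A peak was assigned to a gene when it overlapped, by at least 1 bp, the sequence within 1 kb of either gene end.

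Most male germ cell genes on X are silenced during meiosis, when the X and Y chromosomes are packed into the sex body of pachytene spermatocytes. Autosomal retrocopies, which arose from reverse-transcribed mRNA and mostly lack introns, are known to supply the missing products in these cells. Spermatocytes live largely on lactate delivered by Sertoli cells, while sperm rely on germ cell glycolytic isozymes.

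ATAC-seq, which reads out accessible chromatin by inserting adapters with a transposase, was run on pachytene spermatocytes taken from mouse testes. In the BMH-21 group, cells received 2.5 µM of BMH-21, which inhibits RNA polymerase I, for 12 h, and the mock group received the DMSO vehicle. Each group has 2 libraries of about 10000 cells, which the submitters call biological replicates. No source used here gives the strain, the age, the number of animals or how the cells were purified, so the spread between libraries may be technical. With 2 libraries against 2, an exact two-sided permutation test cannot give a p below 0.333, and every comparison below without overlap between the groups has that value.

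The 4 peak lists hold 51234 and 55459 peaks in the BMH-21 libraries, against 109230 and 117905 in the mock libraries. Pachytene markers carried a gene-end peak for 11 and 10 of 12 genes in BMH-21, against 11 and 11 in mock, with Ccna1 lacking one in all 4 libraries. Spermatid markers carried one for 2 and 2 of 10 genes in BMH-21, against 6 and 7 in mock. Leukocyte markers had 1 and 1 of 8 genes in BMH-21, against 6 and 7 in mock. Sertoli cell markers had 5 and 4 of 10 in BMH-21, against 8 and 8 in mock, and spermatogonial markers 5 and 6 of 10 in BMH-21, against 8 and 8 in mock. Leydig and peritubular markers had 3 and 3 of 9 in BMH-21, against 6 and 6 in mock, and endothelial markers 1 and 1 of 5 in BMH-21, against 3 and 3 in mock. The part of these other cell types in the results was not tested, and fewer cells of a type and less open chromatin per cell cannot be told apart.

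All 9 genes had a gene-end peak in each of the 4 libraries, so none was lost and none was gained with BMH-21. Such a peak in all 4 libraries was held by 33.5% of all annotated genes and by 57.9% of protein-coding genes. Where both mock libraries had a peak at an annotated gene, both BMH-21 libraries had one as well for 75%. Among protein-coding genes this share was 84.3%, and 11.5% had one in neither. Of protein-coding genes without a peak in either mock library, 2.86% had one in both BMH-21 libraries. The gene-end peaks of the 9 genes numbered 12 and 13 in the BMH-21 libraries, against 12 and 12 in the mock libraries, although the BMH-21 lists were much shorter. These numbers include 1 peak per library at the end of Gapdhs that lies at the start of the neighbouring gene Tmem147.

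The height of a peak is given below as its summit pileup, the number of overlapping sequenced fragments at the summit, recovered from the deposited fold and p of that peak. The deposited fold is the authors' ratio of this pileup to the local background, the pileup expected from the surrounding sequence of the same library. The same small constant is added to both before the ratio is taken, so the values given here do not divide to it exactly. Pileups were divided by the genome-wide background of their library, which was 4.46 and 4.11 fragments in BMH-21, against 4.54 and 4.31 in mock, and the ratio of the group means is called the scaled ratio. The caller's values were not normalised between libraries, so a fold can differ between groups through the pileup or through the local background, and both are given.

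Measured at annotated starts, or at the gene end for Cetn1, the pileup of both BMH-21 libraries lay above both mock libraries for 6 of the 9 genes, below for 1, and overlapped for Cstf2t and Rbmxl2. Among the 10383 protein-coding genes that held a start peak, within 1 kb, in all 4 libraries, 32% were higher and 43.1% lower in this way. The median log2 scaled ratio was 0.14 over the 9 genes and -0.06 over the 10383 genes. Of 10 pachytene markers with a gene-end peak in all 4 libraries, 6 were higher and 0 lower by gene-end pileup. Their median log2 scaled ratio was 0.128, so these values were not particular to the 9 genes. The 9 genes were chosen with earlier results of these data known, so these counts are a description.

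**Figure D1:**
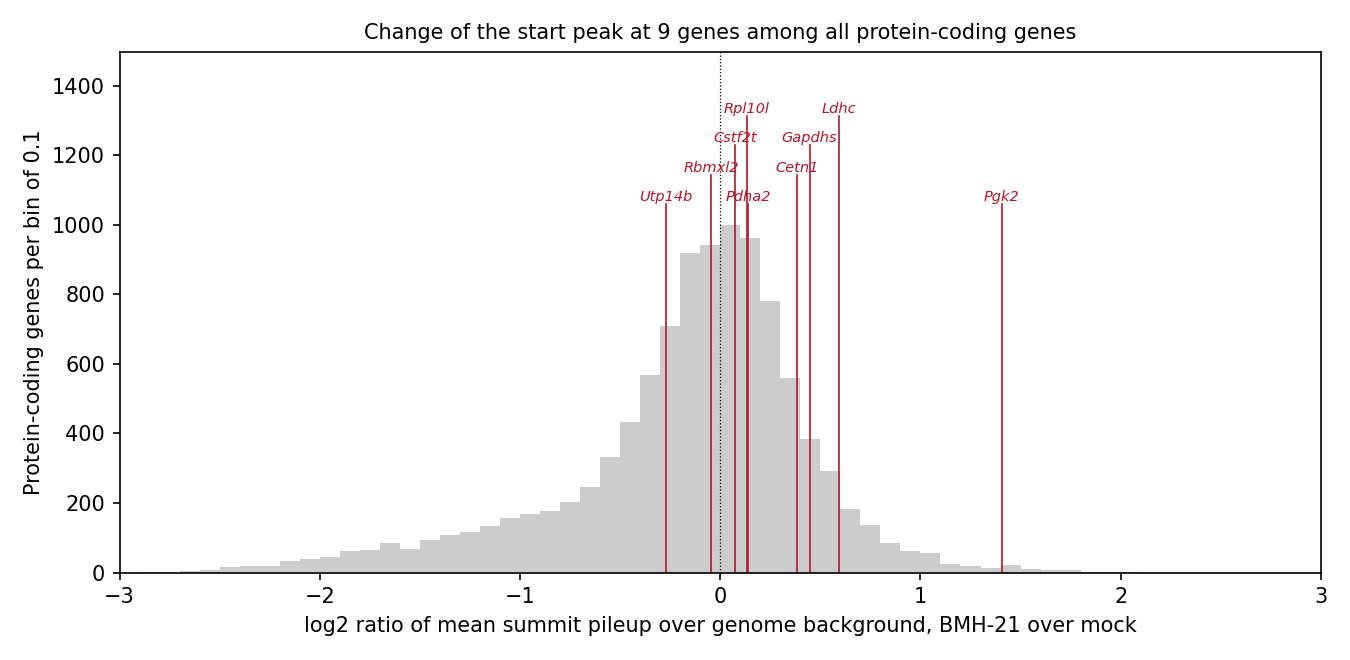
Log2 ratio of the scaled summit pileup, BMH-21 over mock, at annotated starts. The histogram counts protein-coding genes with a peak in all 4 libraries, and marks show the 9 genes. Pgk2 sits at 1.41, at the right edge of the distribution, while Utp14b at -0.27 is the lowest of the 9.

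Pgk2, the testis phosphoglycerate kinase, had the greatest scaled ratio of the 9 genes. It is an intronless gene on the minus strand of chromosome 17 (chr17:40207018-40208609), and its peak lay over the start in every library. The sequence under the peak is shown with that of its parent Pgk1, the ubiquitous phosphoglycerate kinase on X, to set the promoter of the copy beside the CpG-rich one of the parent. The windows run from 250 bases before to 50 after the annotated start, 5′ to 3′ on the gene's strand (RefSeq, GRCm38.p6). They are chr17:40208560-40208859 on the minus strand for Pgk2 and chrX:106186850-106187149 on the plus strand for Pgk1. Capitals mark CCAAT and GGGCGG, the CCAAT box and GC box, on either strand.
Pgk2: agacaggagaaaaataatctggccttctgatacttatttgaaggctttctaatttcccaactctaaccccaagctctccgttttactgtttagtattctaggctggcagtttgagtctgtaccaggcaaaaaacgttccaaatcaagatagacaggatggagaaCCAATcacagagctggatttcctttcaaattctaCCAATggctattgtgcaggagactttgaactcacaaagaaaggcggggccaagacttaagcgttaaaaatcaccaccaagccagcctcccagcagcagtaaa
Pgk1: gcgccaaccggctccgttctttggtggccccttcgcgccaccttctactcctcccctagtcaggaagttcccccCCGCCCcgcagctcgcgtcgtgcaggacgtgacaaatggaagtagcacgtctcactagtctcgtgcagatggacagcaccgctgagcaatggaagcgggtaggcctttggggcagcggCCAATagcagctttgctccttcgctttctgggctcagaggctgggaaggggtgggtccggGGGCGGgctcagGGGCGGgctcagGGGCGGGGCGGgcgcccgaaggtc

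The Pgk2 window has a GC content of 43.0% with 4 CpG dinucleotides, and 2 CCAAT motifs that begin at -86 and -52 from the start. The Pgk1 window has a GC content of 66.7% with 24 CpG dinucleotides, 5 GC boxes of which the last 2 overlap, and a CCAAT motif at -58. Over all 32851 promoter windows the median GC content was 52.7% and the median CpG count 7, while 37.4% held CCAAT and 35.7% held GGGCGG. A motif match describes letters in the window and shows no binding.

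At the Pgk2 start the summit pileup was 72 and 67 fragments in the BMH-21 libraries, against 25 and 29 in the mock libraries. Both BMH-21 values exceeded both mock values by a wide margin. The deposited fold was 11.3 and 11.2 in BMH-21, against 4.69 and 5.645 in mock. Scaled to the genome background, the pileup averaged 16.2 ± 0.091 in BMH-21 and 6.115 ± 0.859 in mock (SD, n = 2 each), a scaled ratio of 2.65 that exceeded those of 99.5% of the genes with start peaks. The peak was also wider in BMH-21, at 782 and 799 bp, against 237 and 338 bp in mock. Its summit stayed close to the start, at -45 and -30 bp in BMH-21, against 2 and -18 bp in mock. In mock library 2 a separate peak of fold 4.33 lay further into the gene, within the span covered by the single BMH-21 peaks.

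The local background at Pgk2 was 1.23 and 1.23 times the genome background in BMH-21, against 1 and 1 in mock, so fold and pileup both placed BMH-21 above mock. Within their lists, the folds stood at the 97.7th and 97.0th percentile in BMH-21, against the 58.6th and 73.6th in mock, though ranks in lists of different length show no change by themselves. No other peak lay within 50 kb of Pgk2 in any library.

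**Figure D2:**
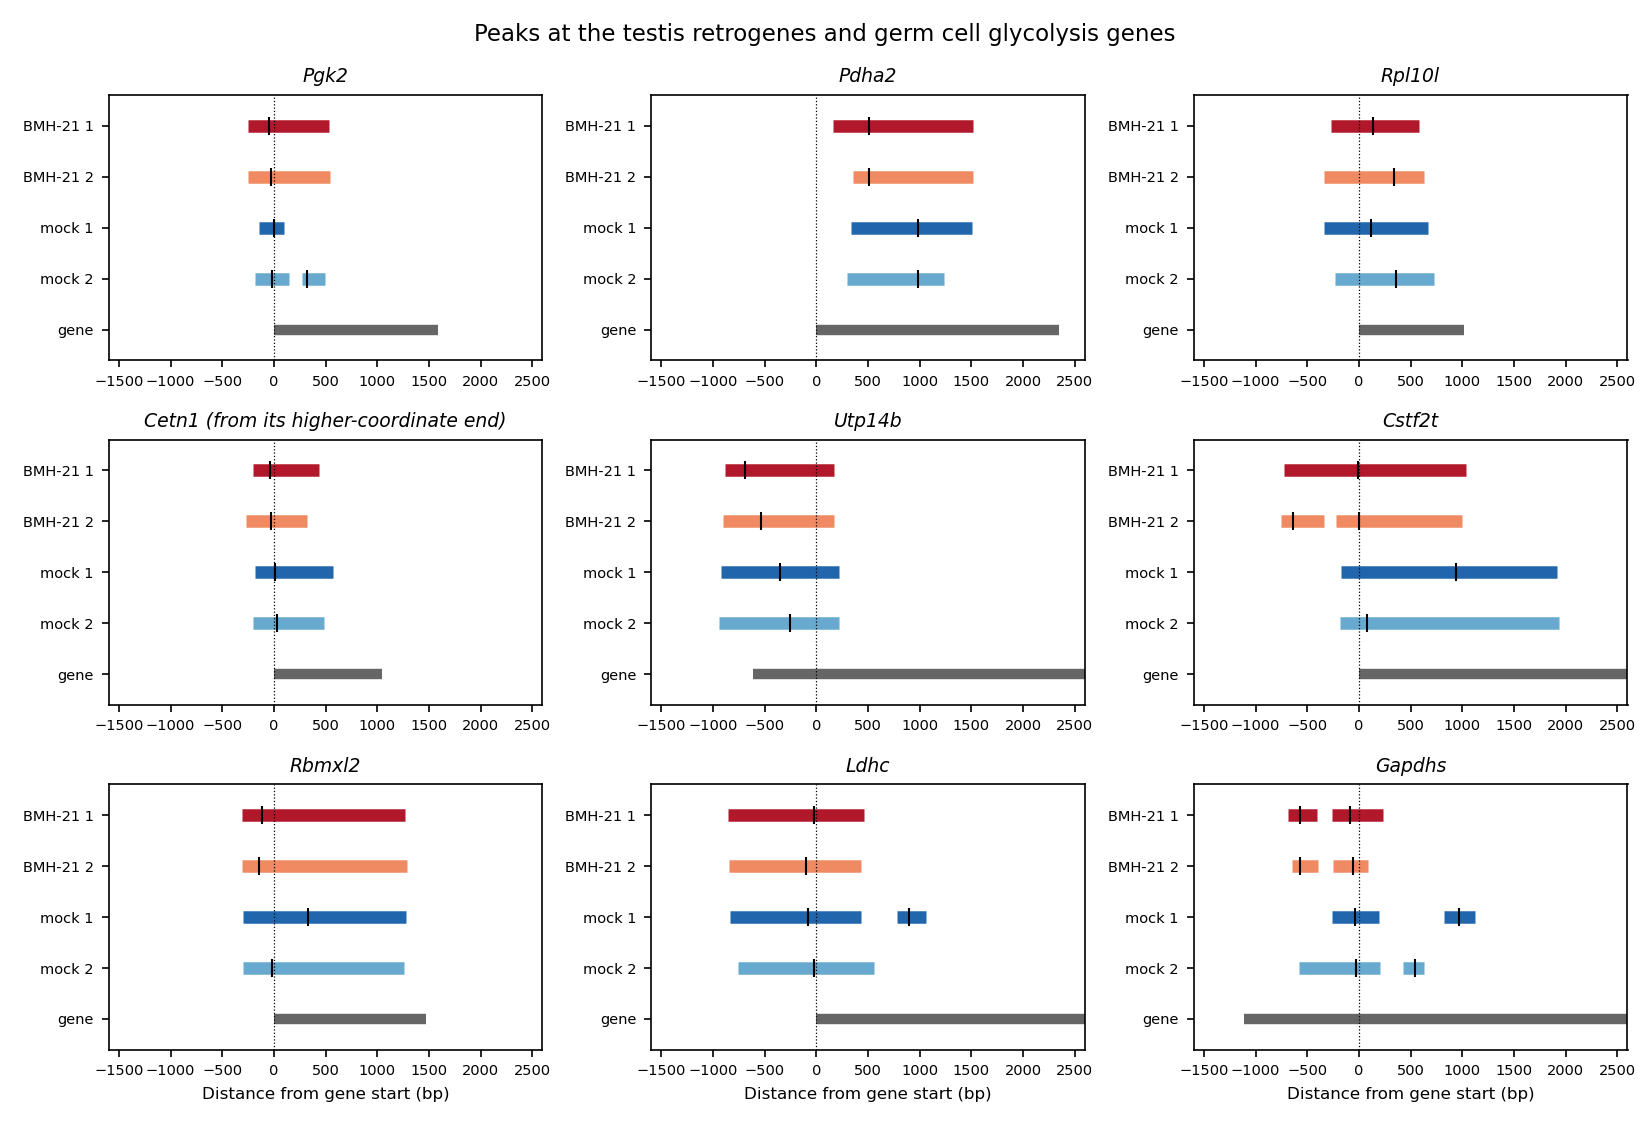
Positions of the peaks near the start of the 9 genes, in bp from the annotated start (for Cetn1, from its end of higher coordinate), with BMH-21 libraries above mock libraries. Bars are peaks, black ticks summits and grey bars the gene. Peaks inside a gene and away from its ends are drawn as well. Peaks far from the start, such as those at the far end of Ldhc and at Tmem147, are not shown. The Pgk2 peaks are 782 and 799 bp wide in BMH-21, against 237 and 338 bp in mock, and the Pdha2 peaks lie inside the gene.

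Ldhc, which encodes the lactate dehydrogenase of spermatocytes and sperm, lies on the plus strand next to its paralog Ldha (chr7:46861263-46878147). It has introns and is not a retrocopy. Its start region is shown because it carried one of the tallest peaks of the set in BMH-21 and holds paired motifs. The window is chr7:46861013-46861312, plus strand. Capitals mark TGACG, the core of the cAMP response element TGACGTCA that germ cell CREM binds, AACNGTT, a site of the MYB family to which the meiotic regulator MYBL1 belongs, and GGGCGG.
Ldhc: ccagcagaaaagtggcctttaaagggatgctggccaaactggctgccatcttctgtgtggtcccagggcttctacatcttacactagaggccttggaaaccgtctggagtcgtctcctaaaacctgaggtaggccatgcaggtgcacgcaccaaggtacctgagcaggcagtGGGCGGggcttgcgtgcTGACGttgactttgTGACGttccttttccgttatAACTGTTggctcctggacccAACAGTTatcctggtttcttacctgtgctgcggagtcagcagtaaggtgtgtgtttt

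The window holds TGACG at -61 and -47 and AACNGTT at -27 and -7, and of all windows 20.8% hold TGACG and 4.45% hold AACNGTT on either strand. The peak over this window also covers the start of Gm39011, a lncRNA gene that runs in the opposite direction from position 46861244, so the peak cannot be given to Ldhc alone. Its summit pileup was 160 and 144 fragments in BMH-21, against 92 and 115 in mock, with no overlap. The scaled pileup averaged 35.4 ± 0.637 in BMH-21 and 23.5 ± 4.52 in mock (SD, n = 2 each), a ratio of 1.51.

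The deposited fold at the Ldhc start ran the other way, at 4.07 and 3.74 in BMH-21, against 4.50 and 5.49 in mock. Beside it, the local background was 8.66 and 9.19 times the genome background in BMH-21, against 4.335 and 4.67 in mock. Both the summit and its surroundings thus held more fragments in BMH-21. A similar difference was seen at the 3′ end of Ldhc, where the pileup was 76 and 84 fragments in BMH-21, against 56 and 63 in mock. There the local background was 41.0 and 39.7 fragments in BMH-21, against 9.92 and 10.1 in mock, and the fold was 1.83 and 2.09 in BMH-21, against 5.22 and 5.78 in mock.

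Gapdhs, the sperm glyceraldehyde-3-phosphate dehydrogenase, has introns, 2 annotated starts and the minus strand (chr7:30729779-30744791). A peak covered the window of the start at 30743681 in all 4 libraries and that of the start at 30739407 in none. The window of the used start, chr7:30743632-30743931 on the minus strand, is shown with TGACG in capitals, its single match, which begins at 38 and lies after the start.
Gapdhs: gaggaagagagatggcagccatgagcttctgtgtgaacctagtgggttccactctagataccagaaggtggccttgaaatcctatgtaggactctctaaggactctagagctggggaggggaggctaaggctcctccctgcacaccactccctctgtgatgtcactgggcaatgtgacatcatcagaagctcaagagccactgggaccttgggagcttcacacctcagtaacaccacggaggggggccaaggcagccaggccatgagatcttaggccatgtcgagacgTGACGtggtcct

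Over this start the summit pileup was 72 and 64 fragments in BMH-21, against 51 and 51 in mock. The scaled pileup averaged 15.9 ± 0.424 in BMH-21 and 11.6 ± 0.26 in mock (SD, n = 2 each, highest summit within 1 kb), a ratio of 1.36, and both BMH-21 libraries were higher. The fold was higher in BMH-21 as well, at 7.37 and 6.81, against 5.51 and 5.56 in mock. The local background of the peak over the start was 2.00 and 2.08 times the genome background in BMH-21, against 1.86 and 1.94 in mock. Each BMH-21 library had a further peak centred at -570 bp, with fold 5.28 and 4.603. The taller peak at the other end of Gapdhs, with pileup 153 and 139 in BMH-21, against 102 and 89 in mock, lies at the start of the neighbouring gene Tmem147. It falls within 1 kb of the gene end, so it is in the gene-end counts, but not in the values at the Gapdhs start.

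**Figure D3:**
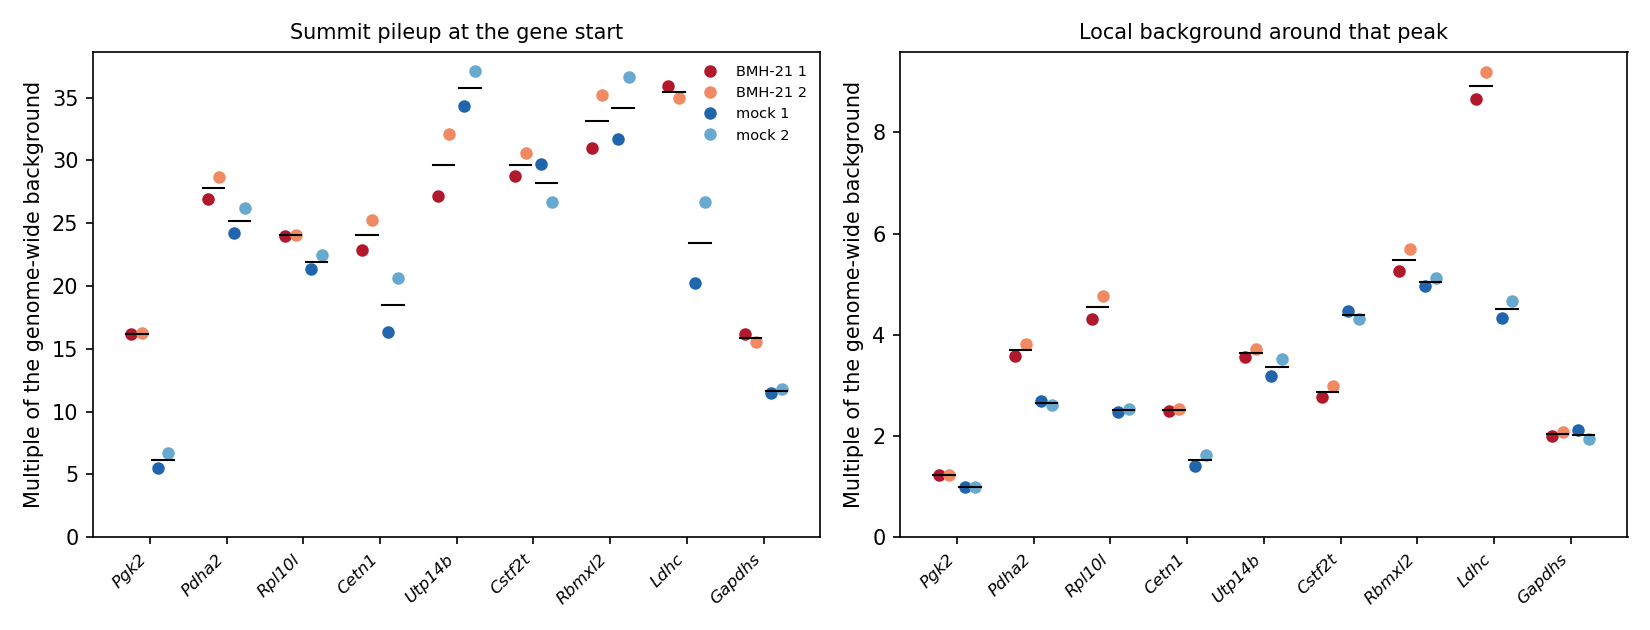
Summit pileup and local background, each over the genome background of its library, at the start of the 9 genes, with BMH-21 left of mock, a point for each library and a line at each group mean; the tallest summit within 1 kb is used. For Ldhc both quantities are higher in BMH-21, and for Cstf2t the local background is lower in BMH-21 while the pileups overlap.

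Pdha2, the testis form of the pyruvate dehydrogenase E1 alpha subunit, is an intronless gene on chromosome 3 (chr3:141210004-141212355, minus strand). The enzyme complex turns pyruvate made from lactate into acetyl-CoA. Its peaks lay inside the gene, and none overlapped the promoter window, whose GC content is 29.7%, in any library. Summits lay 514 and 505 bp into the gene in BMH-21, against 984 and 986 bp in mock, so the tallest point differed between groups. The pileup was 120 and 118 fragments in BMH-21, against 110 and 113 in mock, a scaled ratio of 1.10, small but without overlap. The fold was lower in BMH-21, at 7.15 and 7.12, against 8.40 and 9.31 in mock, and the local background higher, at 3.57 and 3.82 times the genome background, against 2.69 and 2.61 in mock.

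Rpl10l encodes a ribosomal protein that replaces the X-encoded RPL10 in meiosis, and it lies on chromosome 12 (chr12:66283379-66284401, minus strand). Its pileup was 107 and 99 fragments in BMH-21, against 97 and 97 in mock. The scaled ratio was 1.10, with BMH-21 slightly higher in both libraries. By fold, Rpl10l was lower in BMH-21, at 5.35 and 4.85, against 7.99 and 8.22 in mock. The local background was 4.31 and 4.77 times the genome background in BMH-21, against 2.48 and 2.53 in mock, a difference larger than the spread within either group.

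Utp14b, a retrocopy needed for processing of ribosomal RNA precursors in male germ cells, lies within the gene Acsl3 on chromosome 1 (chr1:78657825-78667601, plus strand). The gene models share their first base, and the same peak covers both starts, so it cannot be assigned to either. It was the only member whose pileup was lower in both BMH-21 libraries, at 121 and 132 fragments, against 156 and 160 in mock. The scaled ratio was 0.829, and the fold was 7.24 and 8.17 in BMH-21, against 10.2 and 9.93 in mock. The local background was 3.56 and 3.71 times the genome background in BMH-21, against 3.18 and 3.53 in mock. The window of the Utp14b start holds 40 CpG dinucleotides.

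Cstf2t, a testis form of the CstF-64 polyadenylation factor, lies inside the gene Prkg1 on chromosome 19 (chr19:31082841-31086592, plus strand). Its promoter window, which holds more CpG than that of Pgk2, is shown as a contrast among the retrocopies: chr19:31082591-31082890, plus strand, with GGGCGG and CCAAT in capitals.
Cstf2t: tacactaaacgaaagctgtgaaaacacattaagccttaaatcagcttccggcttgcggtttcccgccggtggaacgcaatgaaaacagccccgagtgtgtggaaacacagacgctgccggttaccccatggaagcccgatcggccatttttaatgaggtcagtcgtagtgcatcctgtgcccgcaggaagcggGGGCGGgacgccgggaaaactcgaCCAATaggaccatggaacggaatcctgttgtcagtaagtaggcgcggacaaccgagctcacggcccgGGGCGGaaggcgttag

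This window has a GC content of 56.7% with 26 CpG dinucleotides. Its pileup was 128 and 126 fragments in BMH-21, against 135 and 115 in mock, so the groups overlapped (exact permutation p = 0.667, n = 2 each). The fold was nevertheless higher in BMH-21, at 9.64 and 9.58, against 6.385 and 5.93 in mock. Here the local background was lower in BMH-21, at 2.78 and 2.98 times the genome background, against 4.47 and 4.30 in mock. The mock peaks extended further into the gene, with widths of 2095 and 2120 bp, against 1763 and 1226 bp for the main peaks in BMH-21. The host Prkg1, a cGMP-dependent protein kinase gene, had no gene-end peak in either BMH-21 library, while both mock libraries had one, of fold 8.94 and 9.44.

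Rbmxl2, an RNA-binding protein that controls splicing in meiosis, lies on chromosome 7 (chr7:107209445-107210916, plus strand). Its pileup was 138 and 145 fragments in BMH-21, against 144 and 158 in mock, and the scaled values overlapped (exact permutation p = 0.667, n = 2 each). The fold was 5.68 and 5.98 in BMH-21, against 6.165 and 6.88 in mock, and the local background was 5.26 and 5.69 times the genome background in BMH-21, against 4.96 and 5.12 in mock. The peak was nearly as wide in every library, at 1576 and 1599 bp in BMH-21, against 1575 and 1555 bp in mock.

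Cetn1, the centrin of testis and photoreceptor cilia, lies on chromosome 18 (chr18:9618419-9619469). Its pileup was 102 and 104 fragments in BMH-21, against 74 and 89 in mock, a scaled ratio of 1.304 with no overlap. The fold was 8.51 and 9.16 in BMH-21, against 10.2 and 11.2 in mock. The local background was higher in BMH-21, at 2.49 and 2.54 times the genome background, against 1.40 and 1.63 in mock.

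Across the 9 genes, the local background at the gene-end peak of highest pileup, which for Gapdhs is the peak at Tmem147, was higher in both BMH-21 libraries for 8 and lower for Cstf2t, while among 12679 protein-coding genes with a gene-end peak in all 4 libraries 44.9% were higher and 42.3% lower. The median log2 ratio of the local background was 0.48 over the 9 genes and 0.01 over those 12679 genes. By the same measure, 10 of 10 pachytene markers with a gene-end peak in all 4 libraries were higher. So were 7 of 7 parents, all on X, and 16 of 19 autosomal retrocopies of X-linked genes, with 3 of these retrocopies lower. Of these 19 retrocopies, 7 are among the 9 genes themselves. Among those 12679 genes, the median log2 ratio was 0.39 on X, with 87.5% above 0, against 0.0 and 50.2% on autosomes. The 7 parents were thus near the background of X. Of 17 ubiquitous glycolysis genes, 4 were higher and 8 lower. The higher local background was thus not particular to the 9 genes. Ranked within its list, the fold stood lower in both BMH-21 libraries than in both mock libraries for 6 of the 9 genes, as for 60.5% of those 12679 genes, and higher for Pgk2 and Cstf2t, as for 24.5%. Gapdhs overlapped by this measure (exact permutation p = 0.667, n = 2 each), but there its start peak in BMH-21 is set against the Tmem147 peak in mock. With the start peak alone, Gapdhs stood 8.90 percentile points higher in BMH-21, without overlap. For Ldhc, the start peak in BMH-21 is likewise set against the peak at the far end of the gene in mock. With the Ldhc start peak alone, the difference was -29.27 percentile points, against -38.1. The fold itself was higher in BMH-21 for Pgk2, Cstf2t and Gapdhs and lower for the other 6, with 30.7% of those genes higher and 51.7% lower. The median log2 ratio of the fold was -0.275 over the 9 genes and -0.13 over those 12679 genes.

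Away from the gene ends, fewer peaks surrounded the genes in BMH-21. The other peaks within 50 kb summed to 21 and 23 in the BMH-21 libraries, against 53 and 53 in the mock libraries, a ratio of 0.415. For 8 of the 9 genes both BMH-21 libraries had fewer than both mock libraries, and Pgk2 had none in any library. Among 12125 autosomal protein-coding genes with a gene-end peak in all 4 libraries, 87.9% had fewer in both BMH-21 libraries and the summed ratio was 0.385, so the surroundings of the 9 genes were near the background. Gapdhs had 8 and 6 neighbouring peaks in BMH-21, against 19 and 17 in mock, and Cstf2t had 0 and 0 in BMH-21, against 2 and 2 in mock.

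**Figure D4:**
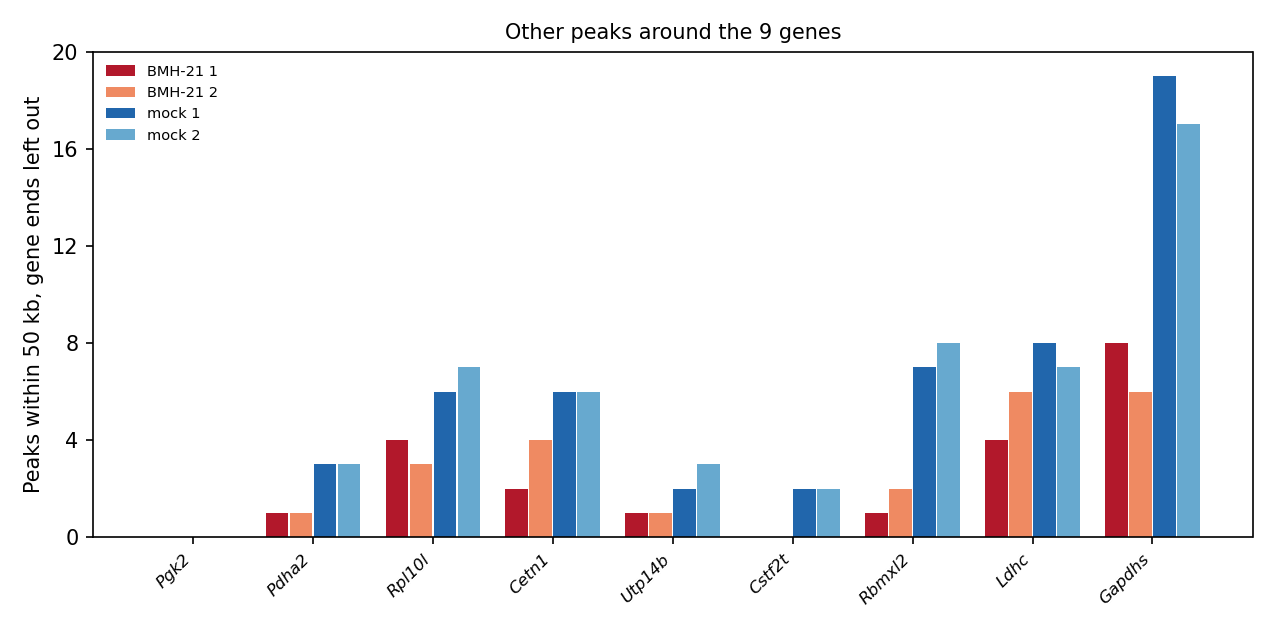
Number of other peaks within 50 kb of each of the 9 genes, with BMH-21 bars left of mock bars and a bar for each library. All genes but Pgk2, which has 0 in every library, have fewer in both BMH-21 libraries, for example 1 and 2 in BMH-21 against 7 and 8 in mock at Rbmxl2.

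The parents and paralogs did not share 1 direction. Taken at annotated starts, all 9 had a peak in every library, and the pileup was higher in both BMH-21 libraries for 5, lower for 2 and overlapping for 2, beside 32% higher and 43.1% lower among the 10383 genes. All but Ldha and Gapdh lie on X, while those genes lie on all chromosomes. Over protein-coding genes with gene-end peaks in all 4 libraries, the median log2 scaled ratio was -0.248 on X and -0.076 on autosomes. Pgk1 had 104 and 113 fragments in BMH-21, against 70 and 94 in mock, a scaled ratio of 1.365, smaller in size than that of Pgk2, a difference that was not tested. Cetn2, Utp14a and Rbmx, the X-linked parents of Cetn1, Utp14b and Rbmxl2, had scaled ratios of 1.58, 1.54 and 1.70 without overlap. Rpl10 and Cstf2 overlapped, at 1.13 and 1.05.

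Pdha1, the X-linked parent of Pdha2, was lower in BMH-21, with 49 and 60 fragments, against 98 and 95 in mock, a scaled ratio of 0.586. Gapdh, the ubiquitous paralog of Gapdhs, was lower as well, with 42 and 48 fragments in BMH-21, against 93 and 86 in mock, a ratio of 0.522. These Gapdh values are the tallest summits within 1 kb of the start and come from different places. They lay at 779 and 121 bp from the start in BMH-21, against 613 and -770 bp in mock. BMH-21 library 1 had no peak over the Gapdh promoter window and no Gapdh gene-end peak. The germ cell counterpart Gapdhs was higher in BMH-21 by the same measure, and the difference between the paralogs was not tested. Ldha, whose peak was higher in both BMH-21 libraries by a small amount, had 121 and 107 fragments in BMH-21, against 113 and 106 in mock, and a ratio of 1.075. Its local background was 3.81 and 3.995 times the genome background in BMH-21, against 5.12 and 5.42 in mock, opposite in direction to that of the adjacent Ldhc. Retrocopies and parents have similar sequence, and how reads that match several places were handled is not given in the sources used here, so their values may share reads.

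Of 22 autosomal retrocopies with an X-linked parent, the 7 above included, 19 had a gene-end peak in all 4 libraries, and none was lost or gained. Of the other 3, G6pd2 and Timm8a2 had no gene-end peak in any library, though the annotated start of Timm8a2 held a peak in all 4, and Ubl4b had one in mock library 1 alone. Of the 19, 12 had a higher and 5 a lower pileup in both BMH-21 libraries, while 30.4% of those 12679 genes were higher and 44.8% lower. Of 11 germ cell genes of glycolysis and pyruvate use, 8 had a gene-end peak in all 4 libraries. By pileup, 7 of them were higher and 1, Aldoart2, lower. The higher genes include Pgk2, Pdha2, Ldhc and Gapdhs, already described above, so this list is not separate from them. Pgk2, Pdha2 and Gk2 are also counted among the retrocopies, and the Gapdhs value here is that of the peak at Tmem147. Aldoart1, Eno4 and G6pd2 had no gene-end peak in any library, though the annotated start of Eno4 held a peak in all 4.

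Among 21 ubiquitous glycolysis and lactate transport genes, 17 had a gene-end peak in all 4 libraries, 5 higher and 6 lower by pileup. Ldha, Ldhb and Aldoa, encoding lactate dehydrogenase subunits and aldolase, had gene-end peaks in both mock libraries but in neither of the BMH-21 libraries. These are 3 of 21 genes, beside 11.5% of protein-coding genes, and with lists cut to equal length 0 were lost and 2 gained. For Ldha and Aldoa this concerned a gene end away from an annotated start, and their starts held peaks in all 4 libraries. Aldoc, another aldolase gene, had a gene-end peak in all 4 libraries but was lost by annotated starts, as Ldhb was. All 11 genes of the pyruvate dehydrogenase complex and its kinases and phosphatases had a gene-end peak in all 4 libraries, with 2 higher and 6 lower by pileup. The median log2 scaled ratio was 0.14 for the retrocopies and 0.59 for the germ cell glycolysis genes. Both of these lists include genes described singly above. The median was -0.004 for the ubiquitous glycolysis genes and -0.23 for the pyruvate dehydrogenase genes, against -0.08 for those 12679 genes.

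By the percentile of their fold in the 4 lists, the protein-coding genes most like each of the 9 were found among 21820 genes outside these lists, by the smallest Euclidean distance in percentile points. For Pgk2 they were Ttc23l at 3.07 and 1700028P14Rik at 5.47, and for Cstf2t Efcab12 at 1.23 and Golga7b at 2.01. Ldhc was closest to Pja1 at 4.79 and Ppia at 5.32, and Gapdhs to Dnajc3 at 2.87 and Tafa5 at 3.12. Pdha2 was closest to Slmap at 0.93 and Zbtb37 at 1.23, and Rpl10l to Txndc5 at 1.3 and Cdc23 at 3.78. Cetn1 was closest to Atxn7l3b at 0.73 and Cmpk1 at 0.86, Utp14b to Rps20 at 1.18 and Matr3 at 1.51, and Rbmxl2 to Rprd2 at 1.62 and Mzt2 at 1.66. Likeness over 4 libraries is a description of these lists.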

How the data were processed

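ATAC-seq peak lists of 4 libraries, 2 BMH-21 and 2 mock, were analysed. Tagmented DNA of about 10000 cells was given 14 PCR cycles and read in pairs of 150 bp, per the labels' protocols. The design text names an RNA library kit, the extract protocol a tagmentation kit. MACS2 2.1.0, Bowtie2, fastp, deepTools, bedtools, mm10 and mm39 are named in the submitters' processing notes, with no role or order. Handling of duplicate, mitochondrial and multiply matching reads, any shift of read ends and caller settings are not given in the sources used here. Peak positions on chromosome 1 reach 195371813, and coordinates were matched to GRCm38.p6 (mm10), 1-based.

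For each peak, the deposited lists give a fold, a −log10 p, a −log10 q, a score and a summit offset. The score is the −log10 q times 10, cut to an integer. The fold is the ratio of summit pileup to local background, with the same small constant added to both. The authors made these values per library, not on pooled samples, and none is normalised between libraries. The smallest deposited −log10 q was 2.01 to 2.09, and an absent peak is one under the authors' threshold. Read totals were not analysed here, so depth is known only as the genome-wide background of each list.

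Summit pileup and local background were recovered from fold and p by the caller's Poisson relation, tested on simulated data. The genome background is the smallest local background of a list. A gene was kept with a gene-end peak in all 4 libraries, lost with one in both mock libraries but neither of the BMH-21 libraries, and gained in the reverse case. The percentile of the fold of the strongest gene-end peak within its list was the planned strength, and the pileup an alternative to it. Because percentiles come from lists of unequal length, pileup and local background carry the description. Exact two-sided permutation tests compared group means over libraries. Named genes were the 9 genes, their parents or paralogs, host genes, lost or gained members of the wider lists and the 2 most similar genes each; other genes named were chosen after their values were seen. The members and gene lists were chosen with earlier results of these data known. Promoter windows and starts came from RefSeq tables, with 8 of 9 genes matched (Cetn1 was not). Alternatives were a −log10 q minimum of 5, equal list lengths, summits with 100 bp on either side, windows of 500 bp and 2.5 kb, the −log10 q percentile, each library left out and, chosen after seeing the data, annotated starts, and for the strength leaving out libraries and a replicate block. Protein comparison was not run. Python 3.11.15, numpy 2.4.6, pandas 2.3.3, SciPy 1.17.1 and matplotlib 3.10.9 were used.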

Additional observations from a re-analysis of the deposited data

How the results depend on the processing

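The 9 genes kept a peak in all 4 libraries under every alternative run, with 0 lost and 0 gained. By percentile of fold, Pdha2, Rpl10l, Cetn1 and Ldhc were lower in BMH-21, whereas the log2 ratio of their pileup was 0.14, 0.13, 0.38 and 0.60, with the higher local background given beside them. For Ldhc the mock percentile is that of the peak at the far end of the gene. The Ldhc start peak alone gave -29.27 percentile points, against -38.1. Leaving out a library moved the difference for Gapdhs (2.27 percentile points) over -0.27 to 4.80, the lowest without BMH-21 replicate 1; there the mock value is the Tmem147 peak, and the start peak alone gave 8.90. The 1 parent or paralog lost was 0 with equal list lengths and with annotated starts, and 1 to 2 with a library left out, the 2 without BMH-21 replicate 2. For the germ cell glycolysis genes, with 0 lost and 0 gained, equal list lengths gave 1 gained and the 2.5 kb window 1 lost. Equal list lengths gave 0 lost and 2 gained ubiquitous glycolysis genes, against 3 and 0. Of the retrocopies, with 0 lost and 0 gained, the 2.5 kb window and annotated starts each gave 1 gained, and leaving out a library gave 0 to 1 lost, the 1 without mock replicate 2. The cause was not tested. With same-numbered libraries as a replicate block, the 9 percentile differences were the same (31.23 for Pgk2, 2.27 for Gapdhs), and p was 0.5, the smallest 2 pairs allow. The difference between replicates 1 and 2 in BMH-21 did not follow that in mock (r = 0.002 across 10383 genes, which are not independent). This cannot show whether same-numbered libraries shared animals or a preparation, because neither is given, so the pairing stays unknown. The class results come from no test and have no paired form. The pair of libraries per group limits every comparison.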

Other observations

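Beyond the 9 genes, some members of the wider lists, chosen after their values were seen, had large differences at gene-end peaks kept in all 4 libraries. Gykl1, an autosomal glycerol kinase retrocopy, had a scaled pileup of 18.6 and 19.4 in BMH-21, against 5.95 and 5.10 in mock, a log2 ratio of 1.79 and above that of Pgk2. Pgam2, a phosphoglycerate mutase of muscle and testis, had 31.4 and 34.3 in BMH-21, against 17.4 and 17.8 in mock. Zrsr1, an imprinted retrocopy of a splicing factor gene, was lower, with 16.8 and 17.5 in BMH-21, against 32.2 and 32.7 in mock. Hk1, the ubiquitous hexokinase gene, had 7.63 and 9.72 in BMH-21, against 22.2 and 22.0 in mock. Pdk4, a kinase that inhibits pyruvate dehydrogenase, had 4.49 and 3.89 in BMH-21, against 16.1 and 15.8 in mock. In each case the groups did not overlap.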
